A study of Mus musculus with 40 samples.

Results

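The 7 genes described here encode receptors through which animal cells bind native collagen: the alpha subunits Itga1, Itga2, Itga10 and Itga11, their shared beta subunit Itgb1, and the discoidin domain receptors Ddr1 and Ddr2. They were picked by symbol and are 7 of the 21347 genes in the expression table. Of these, 6 reached the level needed for testing, among 14701 genes tested, and Itga11 did not. RNA was sequenced from 4T1 cells, a mouse mammary carcinoma line, grown overnight on a substrate and then kept for 24 h with or without T cells from C57Bl6 spleens. Both arms received interleukin 2 at 30 U/mL, so their treatment differed by the T cells. These were seeded at 80000 per cm2 on carcinoma cells seeded at 10000 per cm2. A library tag in the labels, of unstated meaning, also differs between the arms in some experiments. Wells were coated at 250 µg/ml or left as uncoated polystyrene. Collagen I has 3 co-culture libraries and 4 of 4T1 alone, collagen IV 4 and 4, fibronectin 4 and 5, vitronectin 3 and 4, and uncoated polystyrene 4 and 5. The 18 co-cultures and 22 cultures alone come from 5 numbered experiments, and free and trypsinised cells of a well were pooled, so a co-culture library mixes the RNA of both cell types.

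Each collagen-binding integrin is a pair of 1 alpha subunit and the Itgb1 subunit, and the alpha subunit carries the inserted domain that grips triple-helical collagen. The Itga1 receptor is known for binding collagen IV of basement membranes well, and those of Itga2 and Itga11 for binding fibrillar collagens such as collagen I. Ddr1 and Ddr2 are receptor tyrosine kinases that bind collagen directly and signal slowly. Ddr1 is known from epithelia and Ddr2 from mesenchymal cells. Fibronectin and vitronectin are held by other integrins, some of which share the Itgb1 subunit. Activated T cells can carry the Itga1 and Itga2 receptors as well.

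The 250 bases before the annotated start of 4 members are shown because these genes carry the results below. Itga1 and Itga2 are neighbours on the same strand that both gave low values on collagen IV, Itgb1 encodes their common partner, and Itga10 rose in the co-cultures of experiment 4. Sequences are from RefSeq, GRCm38.p6, written 5′ to 3′ on the gene's strand. Capitals mark matches on either strand to the TEAD motif GGAATG or the Sp1 motif GGGCGG. Itga2 lies at chr13:114932101-114932350 and Itga1 at chr13:115101965-115102214, both on the minus strand, and Itgb1 at chr8:128685404-128685653 and Itga10 at chr3:96645334-96645583, both on the plus strand.
Itga2: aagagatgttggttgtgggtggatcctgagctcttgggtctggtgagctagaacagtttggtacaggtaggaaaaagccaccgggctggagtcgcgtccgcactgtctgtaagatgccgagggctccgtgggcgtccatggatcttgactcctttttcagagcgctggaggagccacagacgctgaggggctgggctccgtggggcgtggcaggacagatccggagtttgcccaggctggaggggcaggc
Itga1: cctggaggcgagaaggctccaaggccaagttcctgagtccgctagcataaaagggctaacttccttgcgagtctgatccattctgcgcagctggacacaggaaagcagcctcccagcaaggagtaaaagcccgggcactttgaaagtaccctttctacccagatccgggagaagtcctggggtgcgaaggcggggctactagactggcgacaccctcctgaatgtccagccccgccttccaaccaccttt
Itgb1: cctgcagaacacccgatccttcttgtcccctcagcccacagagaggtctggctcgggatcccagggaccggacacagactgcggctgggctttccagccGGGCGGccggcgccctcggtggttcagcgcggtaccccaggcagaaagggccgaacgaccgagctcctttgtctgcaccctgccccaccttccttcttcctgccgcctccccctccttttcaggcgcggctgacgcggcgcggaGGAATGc
Itga10: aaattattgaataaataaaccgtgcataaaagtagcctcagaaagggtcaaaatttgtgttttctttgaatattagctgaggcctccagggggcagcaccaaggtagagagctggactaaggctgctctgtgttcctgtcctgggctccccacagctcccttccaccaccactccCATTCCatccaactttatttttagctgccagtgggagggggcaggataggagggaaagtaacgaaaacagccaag
The TEAD motif began 7 bases before the start of Itgb1 and 75 bases before that of Itga10, and the Sp1 motif 151 bases before that of Itgb1. No match to these letters, to the AP-1 motif TGANTCA or to the CArG box fell in the windows of Itga2, Itga1, Itga11 or Ddr2. The Ddr2 window, at chr1:170088945-170089194 on the minus strand, lies inside the gene span given in the next paragraph. The bases before the outer start of that span were not searched. Of 4 annotated Ddr1 starts, 3 had the Sp1 motif and 1 also the AP-1 motif, and none of these matches overlapped another. Among 32851 promoter windows of the same length, 12.6% held the TEAD letters, 32.7% the Sp1 letters, 6.75% the AP-1 letters and 1.47% a CArG box.

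The genes lie apart in the genome except for the first pair. In GENCODE M21 (GRCm38, the build that the labels call mm10), Itga2 spans chromosome 13 from 114833081 to 114932100 and Itga1 from 114953096 to 115101964, with 20996 bases between them. Itga10 lies on chromosome 3 (96645584 to 96664519), Itga11 on chromosome 9 (62677826 to 62783982), Itgb1 on chromosome 8 (128685654 to 128733200), Ddr1 on chromosome 17 (35681567 to 35704621) and Ddr2 on chromosome 1 (169972307 to 170110762). Values are sums over the exons of a gene, and the exons of 4 members overlap those of another gene: Gm49395 with Itga1 and Gm42957 with Itga10 on the same strand, Gm4577 with Ddr1 and 3110045C21Rik with Ddr2 on the opposite strand. Whether counting used the strand is not given in the sources used here, so reads of these overlaps cannot be told apart.

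Values are reads per M of scaled library size (written per M), from 18.95 to 239.13 M assigned reads per library (median 34.6 M, second highest 47.7 M). Of 23 listed epithelial markers, 21 are among the genes kept, and all 21 averaged at least 1 per M in both conditions. Krt5 and Ehf are not among the genes kept. These are markers of epithelial cells and do not test the identity of the 4T1 line. All 25 T cell identity genes averaged at least 1 per M in co-culture, and 4 of 25 did in 4T1 alone. The T cell score, the mean log2(per M + 1) of these 25 genes, was 5.64 to 7.23 in the 5 co-cultures of experiment 4, 1.10 to 4.00 in the other 13 co-cultures and 0.343 to 0.474 in 4T1 alone. The collagen IV co-culture of experiment 4 stood furthest out, at 7.23, and the calls and means that change most without it are given both ways.

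Itgb1 was the highest of the 7 transcripts. Its values in the co-cultures were 786 (lowest), 1243 (median) and 1379 (highest) per M, against 1119.9, 1257 and 1441 per M in 4T1 alone. Itga2 came next among the integrins, with 73.8, 161 and 215 per M in the co-cultures and 114, 163 and 209 per M in 4T1 alone. The ranges of both genes overlapped between the conditions, and the co-cultures reached lower.

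Both kinase receptors were present. Ddr2 gave 115, 146 and 193 per M in the co-cultures, against 132, 147 and 181 per M in 4T1 alone. Ddr1 gave 26.4, 32.8 and 48.6 per M in the co-cultures, against 30.6, 38.4 and 50.7 per M in 4T1 alone. Ddr2, the receptor known from mesenchymal cells, thus stood above Ddr1 in the read counts of every library, and per kilobase of exon in 4T1 alone it averaged 16.2 ± 1.58 against 8.34 ± 1.36 for Ddr1 (SD, n = 22).

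The other 3 alpha subunits were scarce. Itga1 gave 1.35, 2.72 and 8.09 per M in the co-cultures, against 1.33, 2.51 and 6.32 per M in 4T1 alone. Itga10 gave 0.598, 0.982 and 4.68 per M in the co-cultures, against 0.574, 0.837 and 1.69 per M in 4T1 alone. Itga11 was listed at 0 reads in 3 of 18 co-cultures and 4 of 22 cultures alone and never passed 9 reads; where no read was seen, 3 reads (between 0.0124 and 0.158 per M over the 40 libraries) is the upper limit, for counting error only.

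Compared per kilobase of exon in 4T1 alone, the levels ran Itgb1 312 ± 23.2, Itga2 23.1 ± 3.66, Ddr2 16.2 ± 1.58, Ddr1 8.34 ± 1.36, Itga10 0.182 ± 0.0512, Itga1 0.148 ± 0.0592 and Itga11 0.0137 ± 0.0147 per M per kb (SD, n = 22). Neighbours in this order whose mean ± SD ranges overlap are Itga10 and Itga1. The order of 2 pairs depends on the length used: per kilobase of coding sequence Ddr2 (58.7) exceeded Itga2 (46.5), and Itga1 (0.778) exceeded Itga10 (0.269). The plot of all libraries by substrate shows how these levels spread.

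**Figure D1:**
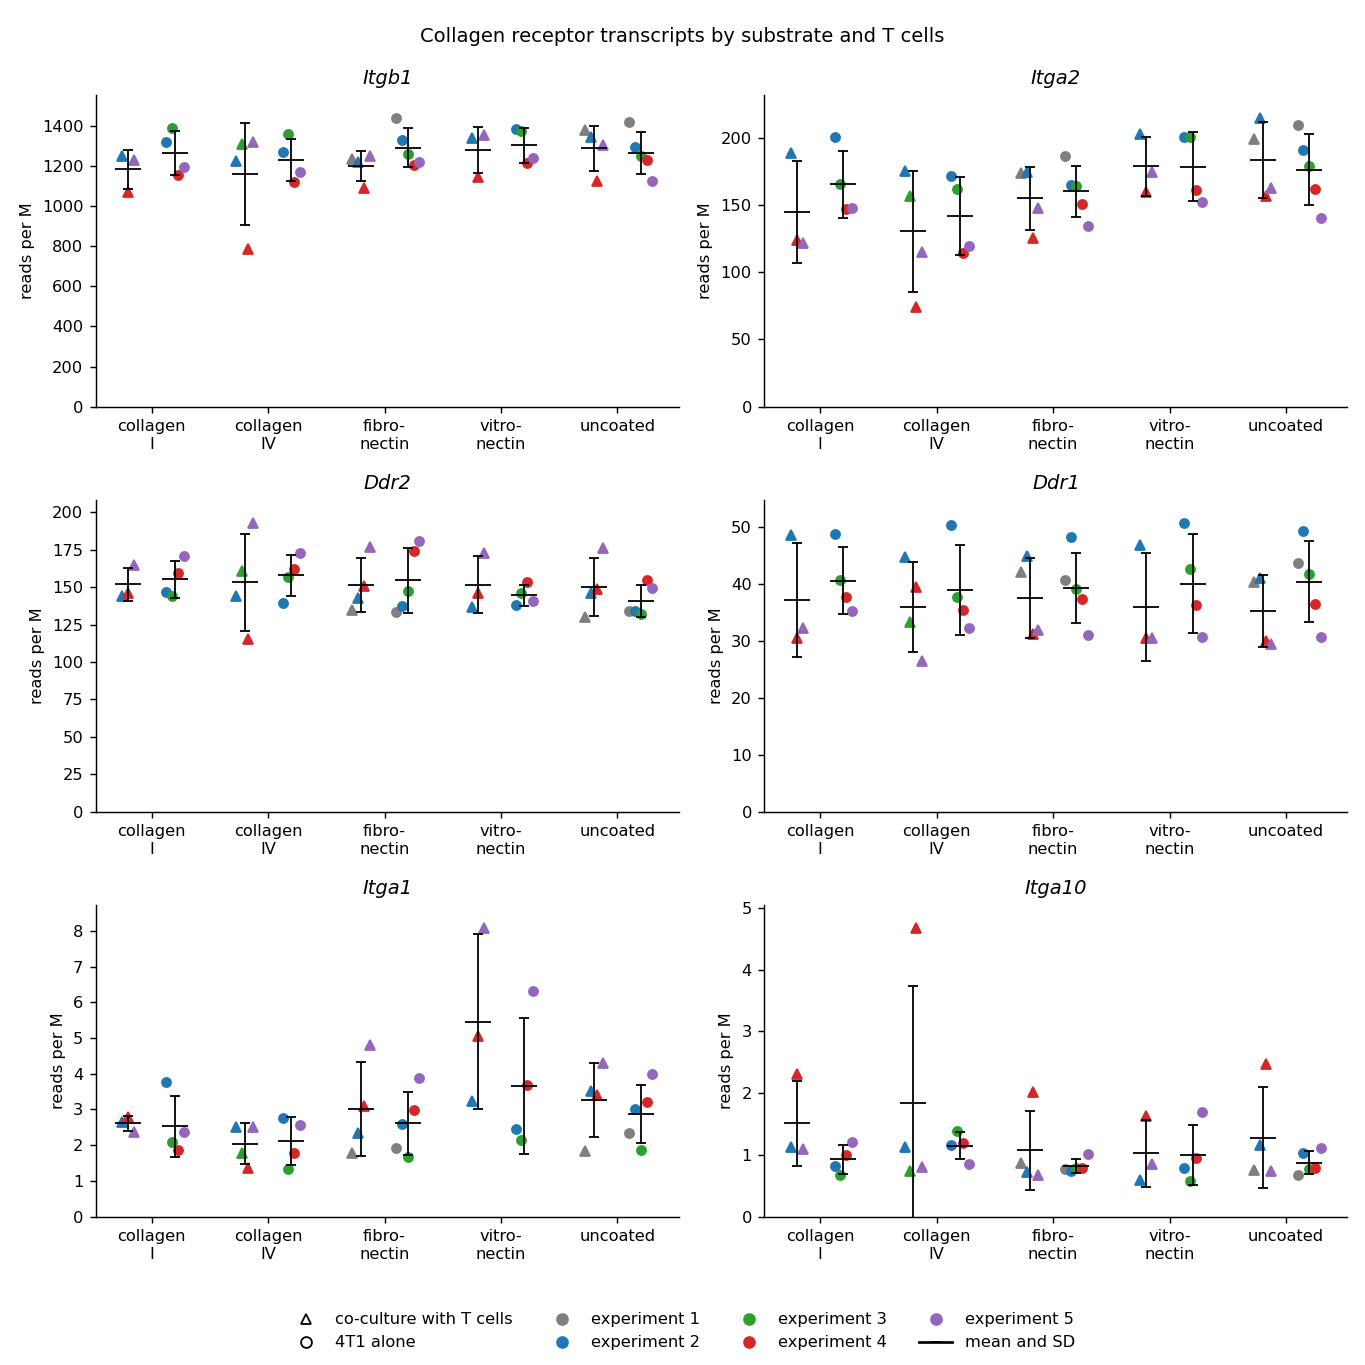
Reads per M (linear axes from 0) of the 6 tested members on each substrate; triangles are co-cultures and circles 4T1 alone, colours mark the experiment, and black bars give mean and SD (1 bar, for Itga10 on collagen IV, is cut off at 0). Itga2 and Itga1 are low on collagen IV, Itga1 reaches 8.09 per M on vitronectin, and the Itga10 co-cultures of experiment 4 lie above all other co-cultures.

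Whether the substrate changes the receptors for its own ligand is the comparison the coats allow, and Itga2 was the member that moved most clearly. On collagen IV it measured 175, 157, 73.8 and 115 per M in the co-cultures of experiments 2, 3, 4 and 5, against 215, 156 and 163 per M on uncoated plastic in experiments 2, 4 and 5 and 199 per M in experiment 1. In 4T1 alone it measured 172, 161, 114 and 119 per M on collagen IV in experiments 2 to 5, against 209, 190.4, 179, 162 and 139.9 per M on uncoated plastic in experiments 1 to 5. The groups overlap across experiments, but within an experiment collagen IV was the lower of the pair in 3 of 3 co-culture pairs and 4 of 4 pairs of 4T1 alone.

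The test depended on whether the experiment entered it. In limma without it, 0 of 24 member tests of a coat against uncoated passed an adjusted p of 0.05 in co-culture and 0 of 24 in 4T1 alone, and at an unadjusted p under 0.05 these were 1 and 0, as with edgeR. Over all genes, collagen IV against uncoated called 0.0136% in co-culture and 0.0068% in 4T1 alone, so this fit made almost no calls for any gene. For any difference among the 5 substrates it called 0.129% of genes in co-culture and 0.252% in 4T1 alone, and 0 of 12 member tests. With the experiment as a block, Itga2 differed among the 5 substrates in co-culture, with 0.57 log2 units between its highest and lowest substrate (limma F test, adjusted p = 0.011, where 1.60% of all genes passed). Leaving out any 1 of 40 libraries kept this call (adjusted p 0.0025 to 0.040), as did leaving out experiment 4 (adjusted p = 0.020). In 4T1 alone the block fitted to the 22 cultures alone gave 0.34 log2 units (adjusted p = 0.0071, where 9.82% of all genes passed), and none of the 22 omissions of 1 library ended it, with adjusted p of 0.0056 to 0.026. With all 40 libraries in the block fit the adjusted p for 4T1 alone was 0.26, and 0.070 without experiment 4.

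By coat, collagen IV was the one that passed against uncoated plastic. Itga2 fell on collagen IV by 0.53 ± 0.11 log2 units in co-culture (SE, limma with the block, adjusted p = 0.016, 3 of 3 pairs lower, 0.286% of all genes called). Without the collagen IV co-culture of experiment 4 the difference was -0.33 ± 0.07 (adjusted p = 0.077), and the call also ended without the uncoated co-culture of experiment 2, 4 or 5 (-0.52 each, adjusted p 0.064, 0.11 and 0.086). In 4T1 alone the difference was -0.26 ± 0.06 (block on 4T1 alone, adjusted p = 0.032, 4 of 4 pairs lower, 1.43% called). That call ended in 9 of 22 omissions of 1 library, namely any of the 5 uncoated libraries, the fibronectin library of experiment 1 and the collagen IV libraries of experiments 3, 4 and 5, with differences of -0.20 to -0.30 and adjusted p of 0.050 to 0.13. Scaled to the carcinoma markers, without a block, the difference was -0.22 in co-culture and -0.26 in 4T1 alone, so the direction stayed.

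Itga2 also differed between the collagens in 4T1 alone, in 1 of the fits. It measured 200.3, 165, 147 and 148 per M on collagen I in experiments 2 to 5, against 172, 161, 114 and 119 per M on collagen IV. Collagen I was higher in 4 of 4 pairs, by 0.23 ± 0.06 log2 units (limma with the block on 4T1 alone, adjusted p = 0.024, 6.63% of genes called). The same difference had an adjusted p of 0.37 with the block over all 40 libraries and 0.33 in edgeR with the block, and did not pass. The adjusted p was 0.108 and 0.084 without the collagen I library of experiment 2 or 5, and 0.105 and 0.070 without the collagen IV library of experiment 4 or 5. In co-culture collagen I was also higher in 3 of 3 pairs, on average by 0.31 ± 0.37 (SD), or 0.09 ± 0.02 over the 2 pairs outside experiment 4, and this did not pass.

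On fibronectin and vitronectin Itga2 passed no test against uncoated plastic. On fibronectin it was lower than on uncoated plastic in 4 of 4 co-culture pairs (mean -0.24 ± 0.08, SD) and 5 of 5 pairs of 4T1 alone (-0.13 ± 0.06). On vitronectin it was lower in 1 of 3 and 1 of 4 pairs, with means of 0.01 ± 0.09 and 0.09 ± 0.07. A lower Itga2 was thus also seen on a coat that holds no collagen.

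**Figure D2:**
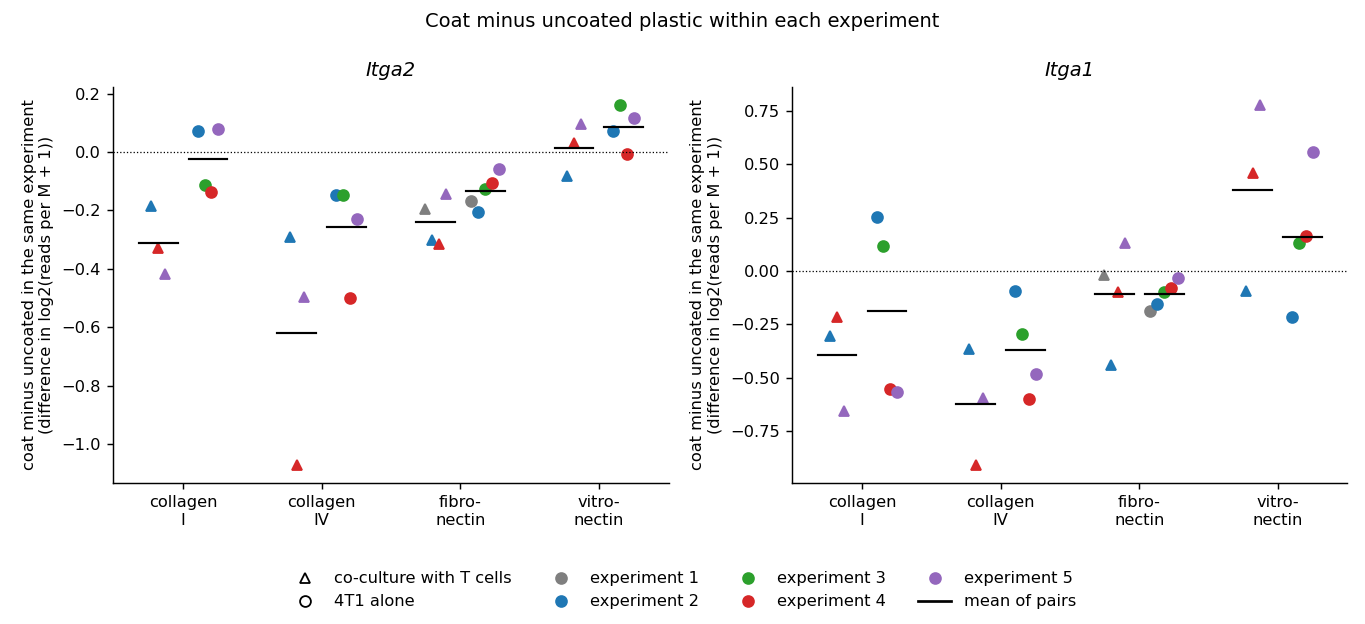
Coat minus uncoated plastic within each experiment for Itga2 and Itga1, in differences of log2(reads per M + 1); triangles are co-cultures, circles 4T1 alone, colours mark the experiment and black lines the mean of the pairs. All Itga2 and Itga1 points on collagen IV lie under 0, and the lowest of Itga2 is the co-culture of experiment 4 at -1.07.

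Itga1, the subunit of the receptor known for collagen IV, was lower on collagen IV and, by group mean, highest on vitronectin. On collagen IV it measured 2.50, 1.79, 1.35 and 2.52 per M in the co-cultures of experiments 2 to 5, and on vitronectin 3.23, 5.05 and 8.09 per M in experiments 2, 4 and 5. In 4T1 alone it measured 2.76, 1.33, 1.78 and 2.56 per M on collagen IV and 2.45, 2.13, 3.70 and 6.32 per M on vitronectin in experiments 2 to 5. In co-culture the ranges of these 2 coats did not overlap, and in 4T1 alone they did. In experiment 2 of 4T1 alone, the 2.45 per M on vitronectin was the lowest value of all substrates.

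Set against uncoated plastic, Itga1 was lower on collagen IV in 3 of 3 co-culture pairs and 4 of 4 pairs of 4T1 alone (mean -0.62 ± 0.27 and -0.37 ± 0.22, SD), and neither passed. Vitronectin was the higher in 2 of 3 and 3 of 4 such pairs (mean 0.38 ± 0.44 and 0.16 ± 0.32, SD), and neither passed. The mean of both collagens minus that of fibronectin and vitronectin was -0.58 ± 0.14 log2 units in co-culture with the block (limma, adjusted p = 0.047, lower in 3 of 3 pairs, 0.667% of genes called). This lay at the threshold: 30 of 40 omissions of 1 library ended the call, with differences between -0.48 and -0.70 and adjusted p up to 0.27, and edgeR with the block gave an adjusted p of 0.050 and did not pass it. Without experiment 4 it was -0.52 ± 0.17 (adjusted p = 0.26). In 4T1 alone it was -0.31 ± 0.12 (adjusted p = 0.24, block on 4T1 alone). The same contrast for Itga2 was -0.31 ± 0.08 in co-culture (adjusted p = 0.072), or -0.34 with the library tag beside the block (adjusted p = 0.025). The test of any difference among substrates gave Itga1 an adjusted p of 0.058 in co-culture with the block in limma and 0.048 in edgeR. For the collagens against fibronectin and vitronectin without a block, 0 of 12 member tests passed, 2 of them at an unadjusted p under 0.05 (1 with edgeR), and no gene of all tested (0%) was called.

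The beta subunit and the kinases passed no test of the coats. Itgb1 differed from uncoated plastic by a mean of -0.21 ± 0.27 in 3 co-culture pairs on collagen IV (-0.06 ± 0.10 without experiment 4) and 0.00 ± 0.11 in 4 pairs of 4T1 alone (SD). Ddr2 was higher on collagen IV than on uncoated plastic in 4 of 4 pairs of 4T1 alone (0.14 ± 0.10) and on collagen I in 4 of 4 (0.12 ± 0.06), but in 1 of 3 and 0 of 3 co-culture pairs; none of these passed. Between its highest and lowest substrate Ddr1 spanned 0.11 log2 units in co-culture with the block (0.22 without experiment 4) and 0.07 with the block on 4T1 alone, and did not pass. Itga10 was higher on the collagens than on fibronectin and vitronectin in 3 of 3 co-culture pairs (0.37 ± 0.24) and did not pass.

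With T cells added, the average level of 1 member changed, in the fits with the block. In limma without the experiment, none of the 6 passed for T cells added, averaged over substrates, and none had an unadjusted p under 0.05 (1 with edgeR), while 25.2% of all genes were called. With the block, Ddr1 was lower in co-culture by 0.13 ± 0.03 log2 units (SE, limma, adjusted p = 0.0022), and 45.8% of all genes passed the same test, so 1 of 6 members is below that share. Ddr1 was lower in 15 of 18 pairs of wells that share experiment and substrate. The call held in each of the 40 omissions of 1 library (adjusted p 0.00013 to 0.0068) and without experiment 4, where the difference was -0.10 ± 0.03 (adjusted p = 0.019). The sign turned to 0.08 ± 0.07 (adjusted p = 0.35) when libraries were scaled to the carcinoma markers, a scaling that moved the median of all genes to 0.19, against -0.01 without it. In these mixed libraries, fewer carcinoma cells and less RNA per carcinoma cell cannot be told apart.

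**Figure D3:**
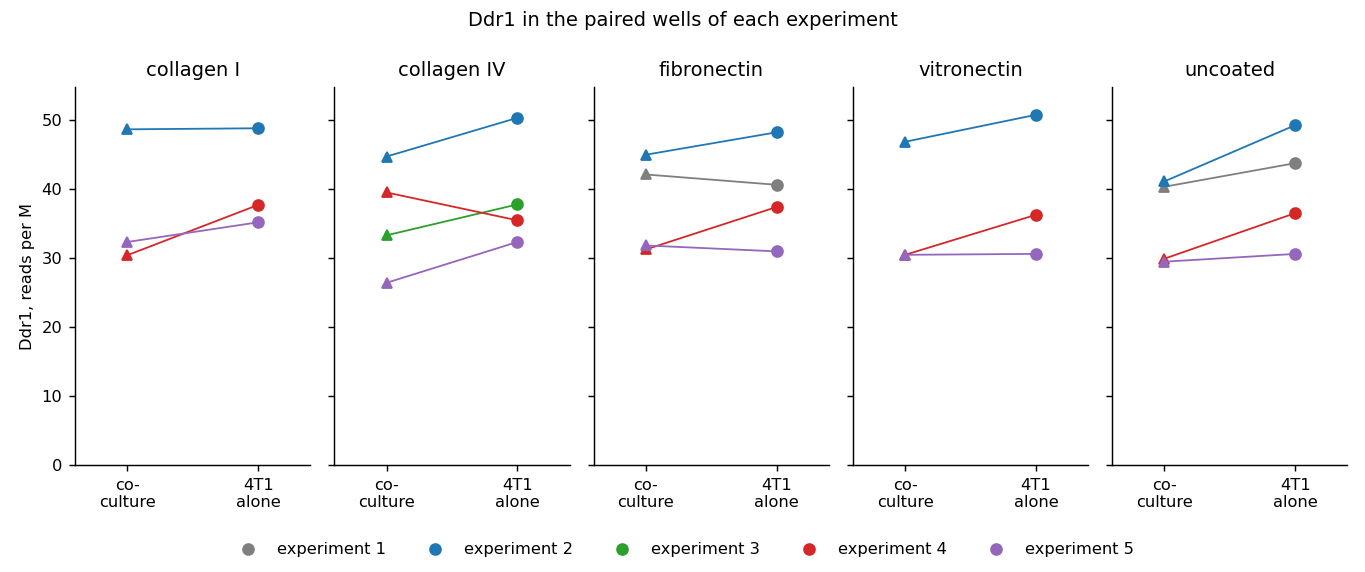
Reads per M of Ddr1 (linear axis from 0) in the 18 pairs of wells that share experiment and substrate; lines join a co-culture (triangle, left) to its culture of 4T1 alone (circle, right) and colours mark the experiment. In 15 of 18 pairs the co-culture is lower (the average difference turns to 0.08 when libraries are scaled to the carcinoma markers), and among the circles experiment 2 is highest and experiment 5 lowest.

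The other members had average differences with T cells, in the block fit, of 0.15 ± 0.10 (Itga10), 0.08 ± 0.09 (Itga1), 0.00 ± 0.04 (Ddr2), -0.04 ± 0.05 (Itga2) and -0.04 ± 0.04 (Itgb1) log2 units, none of which passed; scaled to the carcinoma markers all 6 members were above 0. By substrate and without the block, 0 of 30 member tests passed in limma and 0 had an unadjusted p under 0.05. edgeR without the block gave the same counts. In limma with the block 0 passed and 1 was under 0.05, Ddr1 on uncoated plastic (-0.19 ± 0.07, SE, adjusted p = 0.081). edgeR with the block gave these counts too. The limma block fit without experiment 4 had 3 under 0.05 and 0 passing. No gene at all (0%) was called by limma on a single substrate without the block, while edgeR called 266 on collagen IV, 111 on fibronectin and 105 on uncoated plastic. Of 24 member tests of whether the T cell difference changed with the coat, 0 passed and 0 had an unadjusted p under 0.05 with either tool, where likewise 0% of genes were called. Itga1 was higher with T cells in 3 of 3 pairs on vitronectin, by 0.32 ± 0.04 (SD), without passing.

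Experiment 4 differed from the others. There Itga2 fell by 0.24 ± 0.09, Itgb1 by 0.19 ± 0.06, Ddr2 by 0.19 ± 0.06 and Ddr1 by 0.18 ± 0.06 log2 units in co-culture, values that turn to 0.24, 0.29, 0.29 and 0.29 when libraries are scaled to the carcinoma markers (SE, limma, adjusted p 0.015, 0.0031, 0.0057 and 0.0065 before scaling). Itga10 rose by 0.85 ± 0.12 (adjusted p = 4.6e-07) and by 1.24 after that scaling, which put the median of all genes at 0.44. With quantile normalisation Itgb1 was at -0.10 and did not pass (adjusted p = 0.14). These 5 of 6 members stand against 64.3% of all genes called in that experiment. After marker scaling all 6 passed as higher, Itga1 at 0.49 (adjusted p = 0.0052). With that scaling 79.9% of all genes were called, 11610 genes higher and 139 lower. The median of the members was then 0.29, against 0.44 for all genes. Without the collagen IV co-culture, Itga2 (-0.11, adjusted p = 0.15) and Ddr2 (-0.10, 0.051) no longer passed, Itgb1 was at -0.10 (0.026), Ddr1 at -0.27 (6.9e-06) and Itga10 at 0.70 (1.1e-06). No member passed in experiments 1, 2, 3 or 5, where 3.17%, 1.35%, 0.646% and 4.37% of genes were called. By direction, experiment 4 called 32.4% of genes higher and 32% lower, against 3.16% and 0.0136% in experiment 1, 1.27% and 0.0884% in experiment 2, 0.286% and 0.361% in experiment 3, and 2.55% and 1.82% in experiment 5.

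**Figure D4:**
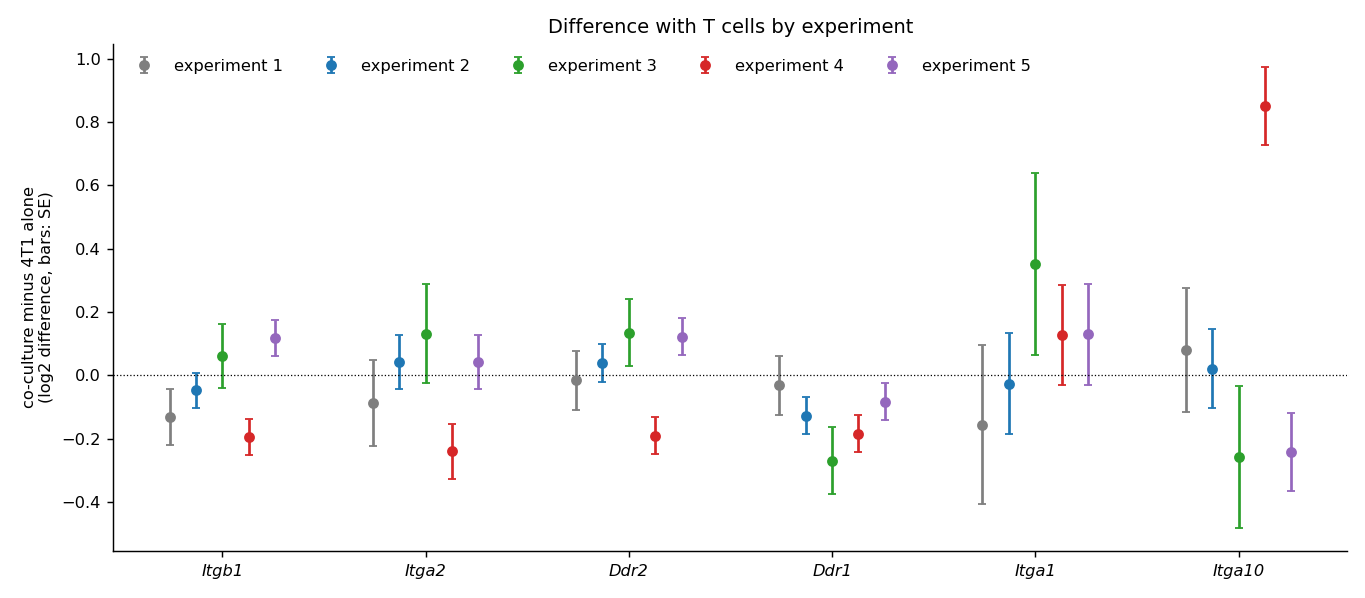
Co-culture minus 4T1 alone in each experiment for the 6 tested members, as log2 differences with SE from the model of experiments; colours mark the experiment. Experiment 4 lies lowest for Itgb1, Itga2 and Ddr2 (the signs there depend on the scaling) and highest for Itga10, at 0.85.

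Itga10, a subunit best known from cartilage, gave the widest contrast. In the co-cultures of experiment 4 it measured 2.31 (collagen I), 4.68 (collagen IV), 2.01 (fibronectin), 1.64 (vitronectin) and 2.47 per M (uncoated plastic). The same experiment's cultures alone gave 0.9998, 1.18, 0.784, 0.953 and 0.790 per M in that order of substrates. All 5 co-cultures were higher than their partners, and these groups did not overlap. The other 13 co-cultures lay at 0.598 to 1.15 per M, under every co-culture of experiment 4.

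The difference itself was tested for the 3 experiments with all substrates in both arms. The T cell difference of experiment 4 minus the mean of experiments 2 and 5 was 0.96 ± 0.15 for Itga10 (adjusted p = 3.6e-06), -0.28 ± 0.11 for Itga2 (0.025), -0.27 ± 0.07 for Ddr2 (0.0023) and -0.23 ± 0.07 for Itgb1 (0.0061), where 50.7% of all genes passed. With the library tag as a covariate, where 23.7% of all genes passed, Itga10 was at 1.13 (adjusted p = 0.0011). In that fit Itga2 (-0.42, 0.059), Ddr2 (-0.29, 0.056) and Itgb1 (-0.25, 0.088) no longer passed. The tag and the arm overlap in experiment 4, where no tag is shared by cultures with and without T cells. They overlap in part in experiment 2, where 4 cultures alone carry no tag and 1 carries R2, as do all 5 co-cultures. For Ddr1 the contrast was -0.08 ± 0.07 (adjusted p = 0.37) and for Itga1 0.08 ± 0.19 (0.77). Without the collagen IV co-culture of experiment 4, Itga10 kept 0.81 (adjusted p = 3.5e-06), while Itgb1 gave -0.14 (0.018), Itga2 gave -0.15 and no longer passed (0.11), and Ddr1 gave -0.16 and passed (0.015). Itga2 also failed to pass without the fibronectin culture alone of experiment 4 (-0.26, adjusted p = 0.054). When libraries were scaled to the carcinoma markers, which moved the median of all genes in this contrast to 0.35, against -0.01 without it, the signs of Itga2 (0.10), Ddr2 (0.12), Itgb1 (0.16) and Ddr1 (0.30) turned positive and Itga10 stayed so (1.31).

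Markers of both cell types moved with these values. All 25 T cell genes rose in experiment 4 (summed level 1657 to 4998 per M in its co-cultures, 39.8 to 499 in the other co-cultures, 14.5 to 22.8 in 4T1 alone). Of 21 epithelial markers 20 fell there (5 fell and 7 rose once libraries were scaled to their median), with sums of 2146 to 3217, 3250 to 4561 and 3448 to 4825 per M in the same 3 sets. B cell genes summed to 45.9 to 142, 0.948 to 14.9 and 0.0395 to 0.285 per M, of which Ighm took a mean of 63.9 per M in experiment 4; 2 of the 2 tested B cell genes rose. Fibroblast genes summed to 78.9 to 169, 25.7 to 57.2 and 30.9 to 58.8 per M. Of 3 tested, Thy1, which T cells also make, rose and Postn fell, while Dcn, Lum, Col3a1 and Twist2 are not among the genes kept. Platelet genes (Itga2b, 1 of 1 tested rose) summed to 3.57 to 7.23, 1.02 to 2.40 and 0.795 to 2.16 per M. Natural killer genes (Eomes, 1 of 1 rose) summed to 6.01 to 11.9, 5.00 to 8.46 and 4.59 to 7.61 per M, and macrophage genes (1 of 3 rose, Lyz2) to 5.90 to 7.94, 3.92 to 6.07 and 2.74 to 5.28 per M. Eomes averaged 5.65 per M in 4T1 alone, where the natural killer sum averaged 5.68, and with quantile normalisation its rise did not pass (-0.004). Ncr1, Klrb1c, Klra4, Klra8 and Gzma are not among the genes kept. The library tag in the labels, of unstated meaning, also differs there: all 5 cultures alone of experiment 4 carry R3, while 4 of its co-cultures carry none and 1 carries R2. The part of the cell type markers in the member results was not tested, and the values with the tag in the model stand beside the tests above.

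**Figure D5:**
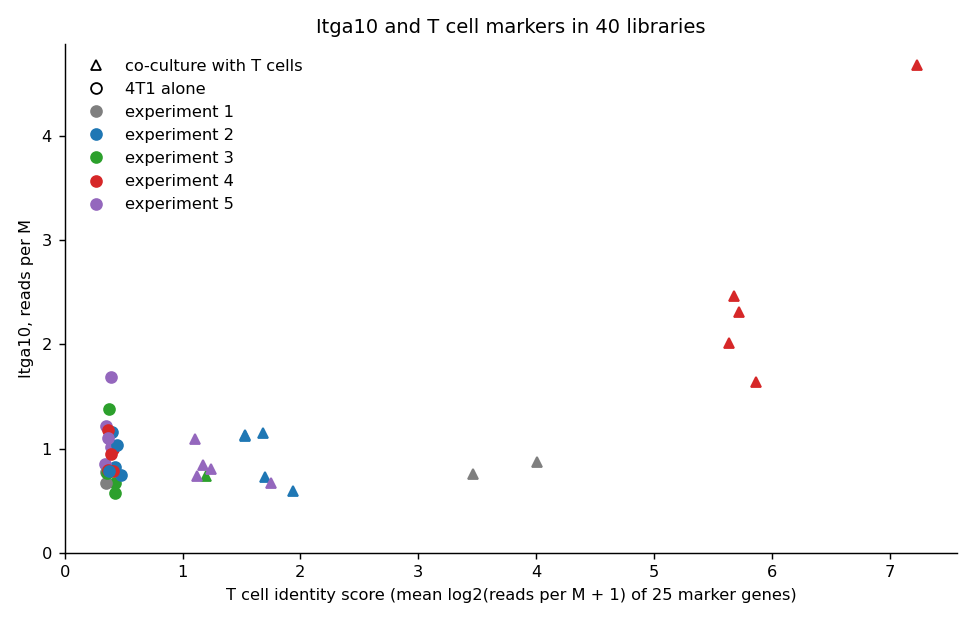
Itga10 in reads per M against the T cell score (mean log2(reads per M + 1) of 25 T cell genes) in all 40 libraries; triangles are co-cultures, circles 4T1 alone, colours mark the experiment. The 5 co-cultures of experiment 4 hold both the highest scores, 5.64 to 7.23, and, with 1 exception, the highest Itga10 values; the exception is a culture alone at 1.69 per M, above the lowest of them at 1.64.

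In cultures without T cells the experiment was the main axis of 5 members. Ddr1 averaged 42.2 ± 2.21, 49.4 ± 1.05, 40.4 ± 1.95, 36.7 ± 0.900 and 31.9 ± 1.95 per M in experiments 1 to 5 (SD, n = 2 in experiment 1 and 5 in each other one), and the ranges of experiments 2, 4 and 5 did not overlap. Itga2 averaged 198 ± 16.2, 185 ± 16.4, 174 ± 16.2, 147 ± 19.5 and 139 ± 12.8 per M in the same experiments. Ddr2 ran the other way, with 134 ± 0.444, 139 ± 4.63, 145 ± 8.78, 161 ± 8.36 and 163 ± 17.0 per M. The limma F test over experiments passed for Ddr1 (adjusted p = 4.7e-09), Itga2 (0.00016), Ddr2 (0.0014), Itga1 (0.0029) and Itgb1 (0.0038), but not for Itga10 (0.39); over all genes 54.7% passed, so 5 of 6 is above that share without a test of the excess. Scaled to the carcinoma markers, Ddr1 (adjusted p = 0.65) and Itga2 (0.70) no longer passed, and with quantile normalisation Itgb1 (0.10) did not.

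Experiment accounted for 94.7% of the variation of log2 Ddr1 among the 22 cultures alone and substrate for 1.32%. For Itga2 these shares were 64.1% and 25.1%, for Itga1 49.6% and 21.2%, and for all genes the medians were 46.8% and 15.8%. Itga2 and Itga1 therefore had the largest substrate shares of the 6. As a description, Itga2 and Itgb1 had a Pearson r of 0.81 across the 22 libraries, and Itga2 and Ddr2 one of -0.74. After each experiment's mean was taken out, these were 0.46 and -0.30, and the r of the neighbours Itga1 and Itga2 was 0.59, against -0.08 before. Libraries of an experiment are a shared biological replicate per the labels, so these points are not independent.

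Genes of the most similar pattern were also picked by that r. For Itga2 they were Itgb4 (0.94), a subunit of hemidesmosomes, Cd44 (0.93), a hyaluronan receptor, and Sulf2 (0.93), a heparan sulfate sulfatase; Cd44 (0.93) and Sulf2 (0.93) remained among the top 3, with Rem2 (0.93), once experiment means were taken out. For Itga1 they were Coro2a (0.86), Spp1 (0.86), which encodes osteopontin, and Ube2h (0.82), and without experiment means Wdr60 (0.89), Areg (0.88) and Wwtr1 (0.86), which encodes TAZ. Those nearest to Ddr1 were Saraf, Endod1 and AI661453 (0.96 each), to Ddr2 Dennd1b (0.92), Mospd2 (0.91) and Raph1 (0.90), to Itgb1 Vti1a, Acsl5 (0.87 each) and Fam57a (0.86), and to Itga10 Gm6285 (0.74), Selenok (0.74) and Gm11425 (0.73).

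Around the 7 receptors, other genes of collagen handling were followed as lists. Among 11 collagens that 4T1 cells can lay down as ligands, 0 rose and 1 fell with T cells in limma without the block, and 0 rose and 8 fell with it, where 25.2% and 45.8% of all genes were called (list median -0.17, all genes -0.01). Col18a1 fell by 0.19 ± 0.06 in the first (adjusted p = 0.028), and Col4a1, a chain of collagen IV, by 0.18 ± 0.04 in the second (adjusted p = 0.0014). In experiment 4, 10 of 11 fell (64.3% of all genes were called there), with Col4a1 at -0.46 ± 0.05 and Col16a1 at -0.52 ± 0.04; scaled to the carcinoma markers 1 of 11 rose and 1 fell there, and Col4a1 turned to 0.02. In the average over experiments that scaling called none of the 11 and turned Col18a1 to 0.02 and Col4a1 to 0.01. Mmp14, a membrane collagenase that can also cleave receptors, fell with T cells by 0.20 ± 0.05 (adjusted p = 0.014, no block), or was at 0.02 scaled to the carcinoma markers. On collagen I it was higher than on uncoated plastic by 0.48 ± 0.10 in co-culture and 0.52 ± 0.09 in 4T1 alone (block, adjusted p 0.035 and 0.0026). Adgrg1, another collagen receptor, was lower on the collagens than on fibronectin and vitronectin by 0.62 ± 0.12 in co-culture and 0.60 ± 0.11 in 4T1 alone (block, adjusted p 0.011 and 0.0089). It also differed between the collagens in co-culture, where it was higher on collagen I than on collagen IV by 0.68 ± 0.18 (limma with the block, adjusted p = 0.049). That difference did not pass in 4T1 alone.

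Of 8 other alpha subunits 2 rose and 1 fell with T cells, and of 6 other beta subunits 1 rose, where 25.2% of all genes were called. With the block (45.8%), 3 alpha subunits rose and 2 fell, and 1 beta subunit rose and 1 fell; among those added were Itga6, of laminin receptors (0.09 ± 0.03, adjusted p = 0.022), and Itgb5, of a vitronectin receptor (-0.25 ± 0.06, 0.0016; -0.02 scaled to the carcinoma markers). Without the block, the risers were Itga4 and Itgb7, which pair in lymphocytes (37.9 ± 65.1 and 27.7 ± 48.7 per M in co-culture, 0.0181 ± 0.0454 and 0.576 ± 0.156 per M in 4T1 alone), and Itga2b, while Itga5, of the main fibronectin receptor, fell by 0.15 ± 0.04 log2 units (adjusted p = 0.011), or was at 0.06 scaled to the carcinoma markers. Of 21 linkers and regulators of integrins 1 rose, Fermt3 of blood cells, and 2 fell, Kank2 and Tns3 (both above 0 scaled to the carcinoma markers). Of 25 kinases and adaptors 5 rose and 2 fell, and of 13 genes of shedding and recycling 1 rose, Adam10, a sheddase, and 3 fell, against the same 25.2% of all genes. With the block (45.8%), 2 linkers rose and 9 fell, 8 kinases and adaptors rose and 7 fell, and 3 genes of shedding and recycling rose and 4 fell. Scaled to the carcinoma markers, none of these 3 lists had a fall that passed, 0 of 25 kinases and adaptors rose, and Adam10 no longer passed (adjusted p = 0.064). T cell genes rose in the same libraries, and their part in these lists was not tested.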

How the data were processed

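Co-cultures and 4T1 cells alone were profiled with single-end reads of 75 bases (TruSeq RNA kit, per the labels). Reads were processed with STAR 2.6, featureCounts and edgeR 3.31.7 on mm10, per the submitters' processing notes; the annotation and use of strand are not given in the sources used here. The authors deposited a signal table, in which the reads of a gene are expressed per M of a scaled library size. The reads behind the values came out whole for 100% of them within 0.01, at 18.95 to 239.13 M per library. Of 21349 lines, 21347 genes were kept: 1 duplicate and 1 gene with a missing number were dropped, and 19 symbols turned into dates were left as they are. The 14701 genes at 1 per M or more in at least 3 libraries were tested with limma 3.58.1 (R 4.3.3) on log2(value + 1), a scale that understates changes of low genes such as Itga10, with Benjamini-Hochberg adjustment and a threshold of 0.05. The first fit has 10 group means over 40 libraries and no block. Comparisons of experiments used means of experiment by condition plus substrate. The alternative with the experiment number as a block is given beside the results it changes. The labels describe the numbers as 5 biological replicates, and same-numbered libraries deviated together (median correlation 0.478 over 156 pairs, -0.131 over 562 other pairs; 37 of 40 libraries were closest to one of their own number). edgeR 4.0.16 on the recovered reads, pseudocounts of 0.25 and 4, no filter, quantile normalisation, scaling to the median of 21 epithelial markers, the library tag and omission of each library and of each experiment were the other alternatives. The limma fit without a block was tested on counts simulated with known T cell differences and no experiment effect. The fits with the block and those with edgeR were not tested this way. The members, lists and tests were chosen with earlier results of these data known. Named genes are all members, at most 4 passing genes per list with the smallest adjusted p, and the 3 genes of highest r per member among tested genes with a mean of at least 10 per M over the cultures alone. The levels of Itga11 rest on at most 9 reads and were not tested. Intervals and floors cover counting error only.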

Additional observations from a re-analysis of the deposited data

Results flagged for a closer look

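In 4 of 56 groups of 4 or 5 libraries checked, 1 library stood further from the rest than Dixon's limit, which chance alone exceeds in about 1 group in 20. Gaps over range were taken on log2(per M + 1), so they differ from those of the per M values printed here. Itga10 in the collagen IV co-culture of experiment 4 was 4.68 per M, against 0.738 to 1.12 in the other 3 (gap over range 0.831). Itgb1 was lowest in the same library, at 786 against 1228 to 1321 per M (0.859), and lowest in the fibronectin co-culture of experiment 4, at 1089.8 against 1223 to 1249 per M (0.847). Itga10 on fibronectin in 4T1 alone was highest in experiment 5, at 1.01 against 0.744 to 0.784 per M (0.84).

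The T cell difference of experiment 4 minus the mean of experiments 2 and 5 passed its own test for Itga10 (0.96), Itga2 (-0.282), Ddr2 (-0.27) and Itgb1 (-0.229), in log2 units. Of all genes 50.7% passed the same test. Scaled to the carcinoma markers, the values of Itga2, Ddr2 and Itgb1 turned positive. With the library tag as a covariate only Itga10 passed, at 1.13, where 23.7% of all genes passed. The part of the number of T cells in these values was not tested.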

How the results depend on the processing

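Without a block, 0 members passed for T cells or substrates. Members passing numbered 1 for T cells with the replicate block, with the block and library tag, with edgeR and the block, and with the block without experiment 4 (chosen, like omissions from the block fits, after seeing the data). They numbered 1 for coats in 4T1 alone with the block on 4T1 alone, and 1 for coats in co-culture with the block, with the block and tag, and with edgeR and the block. For the collagens against fibronectin and vitronectin they were 1 with the block and 2 with the block and tag, and for collagen I against collagen IV 1 with the block on 4T1 alone. For any difference among substrates they were 1 with the block, with the block and tag, with the block on 4T1 alone and with the block without experiment 4, and 2 with edgeR and the block. The block changed no other call of a member. The 4 members passing for experiment 4 against experiments 2 and 5 (50.7% of all genes passed) became 1 with the tag as a covariate (23.7%, chosen after seeing the data). They became 2 with carcinoma marker scaling (65.4%), and 3 to 4 without single libraries (46.1% to 51.7%). That scaling turned Ddr1 to 0.30, Ddr2 to 0.116, Itga2 to 0.103 and Itgb1 to 0.158. The 5 members that differed between experiments became 3 with it, and stayed 5 without single libraries; omissions from the fit without a block left the other counts at 0. The cause was not tested. The T cell calls over all genes split into 1922 higher and 1788 lower, against 1504 and 3076 with quantile normalisation, 2534 and 1416 with edgeR, and 496 and 0 with marker scaling. Over all genes, T cells added called 3710 genes, 3950 with edgeR on the recovered reads, 6726 with the block, 6561 with edgeR and the block, 1535 with the block without experiment 4 and 496 with marker scaling. Any substrate difference called 19 genes in co-culture and 37 in 4T1 alone, 235 and 395 with the block, and 1444 with the block on 4T1 alone. Of all member values under alternatives, 9661 were counted as unchanged and 208 newly passed. Another 9 no longer passed, 4 were counted as reversed and 2 ratios of levels moved with coding length. The 4 do not hold every change of sign. Marker scaling also took the members below 0 from 3 to 0 for T cells added, averaged over substrates. The block and marker scaling move most counts over all genes for single coats by over 1.5 times: collagen I against collagen IV in 4T1 alone called 44 genes, 300 with the block and 6 with marker scaling, and the collagens against fibronectin and vitronectin in co-culture called 0, 98 and 5. Low counts limit Itga1, Itga10 and Itga11.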
